A study of Mus musculus with 77 samples.

Results

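The genes described here encode antioxidant and detoxifying enzymes, most of them known targets of the transcription factor NRF2. The 10 members, *Hmox1*, *Nqo1*, *Gclc*, *Gclm*, *Txnrd1*, *Srxn1*, *Sod1*, *Sod2*, *Sod3* and *Cat*, were taken by name. Matching probe transcripts to symbols found all 10 among the 21154 genes with a symbol, on 12 of the 55681 probes that are not controls. *Hmox1* and *Cat* had 2 probes each, and a gene was represented by the probe that was brighter over all arrays. No filter on low signal was applied, so all 12 probes were tested.

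The retinas came from C57BL/6 mice with oxygen-induced retinopathy (OIR), a model in which pups breathe extra oxygen, lose retinal capillaries, and then grow abnormal vessels after they return to room air. OIR litters were kept at 75% oxygen from P7 to P12 and in room air afterwards, and control litters stayed at 21% oxygen. RNA was measured on P12, the day on which the oxygen exposure ended, on P17 and on P28. The P12 groups held 13 OIR and 12 control mice, the P17 groups 13 and 12, and the P28 groups 13 and 14. Each of the 77 mice gave both retinas as 1 pooled sample for 1 Agilent array with 2 dyes, next to universal mouse reference RNA. Whole litters received 1 treatment, and the litter of a mouse is not given in the labels, so no test could account for it.

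Each value is the log2 ratio of retina over reference RNA, computed with an offset of 50 added to the background-corrected signals. The offset pulls the ratio of a dim probe towards 0. The labels place the retina in the Cy5 channel, whereas 3 rod genes gave more Cy3 than Cy5 signal on all 77 arrays, with a lowest log2 difference of 5.53 for *Sag*, 6.22 for *Gnat1* and 2.05 for *Pde6b*. The retina was therefore read from Cy3, which turns every sign against the direction in the labels. A probe was called when its limma test gave a Benjamini-Hochberg adjusted p under 0.05 over all 55681 probes. The number of arrays in each group limits the precision of every value.

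As background, NRF2 is held in the cytoplasm and marked for destruction by KEAP1, and oxidants or electrophiles that modify KEAP1 let NRF2 enter the nucleus and bind antioxidant response elements near its target genes. Those targets make glutathione, reduce thioredoxin and peroxiredoxins, break down heme and reduce quinones, while superoxide dismutases and catalase remove superoxide and hydrogen peroxide. The retina has a high demand for oxygen and light-sensitive membranes rich in unsaturated lipids, which makes these defences a frequent subject of work on oxygen injury.

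On P12, at the end of the oxygen exposure, none of the 10 genes differed between OIR and control mice by the limma test. On P17, *Hmox1*, which encodes the stress-induced enzyme that breaks down heme, was 3.22-fold higher in OIR retinas, and *Sod3*, which encodes the extracellular superoxide dismutase, was 1.18-fold higher by the offset ratio. On P28 no member was called. The enzymes of glutathione synthesis, the thioredoxin and sulfiredoxin genes and *Nqo1* were not called on any of the 3 days.

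In counts, 0 of the 12 member probes were called on P12 by limma, beside 0.0233% of all probes, and 1 reached an unadjusted p under 0.05. On P17, 2 of the 12 were called, both higher in OIR mice, beside 1.13% of all probes, and 3 had an unadjusted p under 0.05. On P28 the limma count was 0 again, beside 0.0611% of all probes, and 1 member probe had an unadjusted p under 0.05. The median log2 difference of the member probes on P12, P17 and P28 was 0.0669, 0.0752 and −0.0271, where the median over all probes was −0.000555, 0.000965 and 0.000288. The calls on P17 were thus those of *Hmox1* and *Sod3*, and *Sod2* had the other unadjusted p under 0.05.

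**Figure D1:**
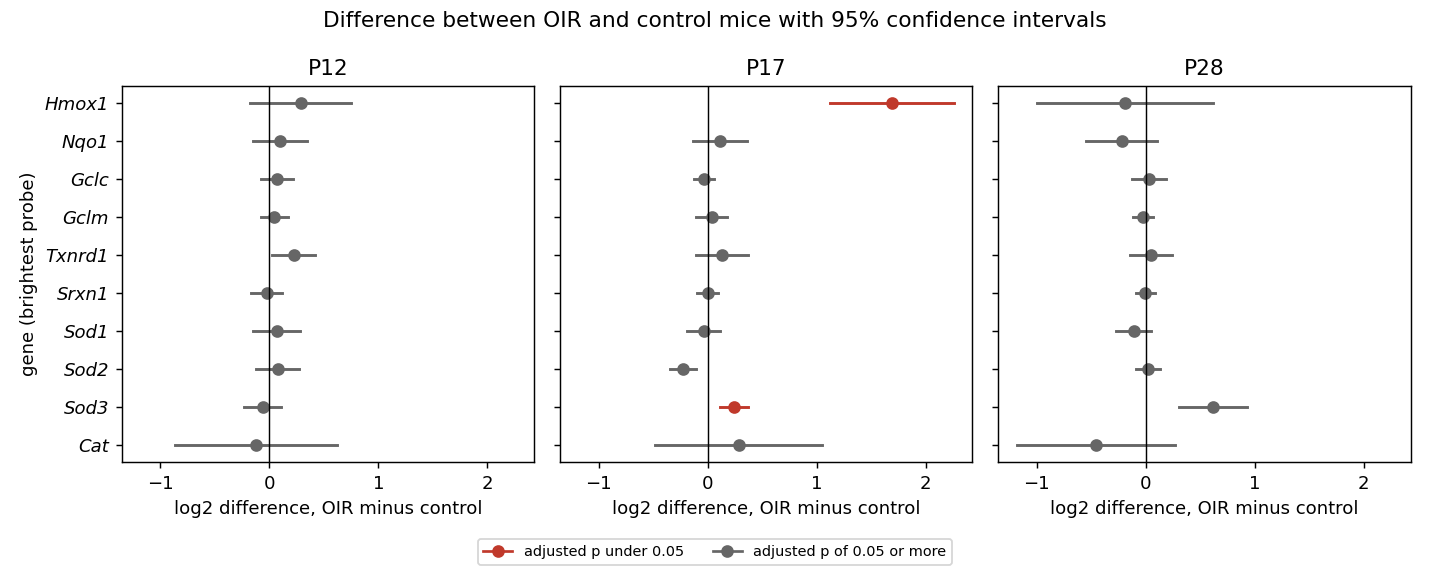
Log2 difference between OIR and control mice for each of the 10 genes (brightest probe) on P12, P17 and P28, with the 95% confidence interval as a line and red for an adjusted p under 0.05. *Hmox1* at 1.69 and *Sod3* at 0.24 on P17 are the red points.

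*Hmox1* encodes heme oxygenase 1, which opens the heme ring and releases iron, carbon monoxide and biliverdin. On P17, its log2 ratio (probe A_51_P263965) had a lowest value of −4.02, a median of −2.80 and a highest value of −1.31 in the 12 control mice. In the 13 OIR mice of that day the lowest, median and highest log2 ratios were −2.40, −1.17 and 0.15. The groups overlapped in part, since all 13 OIR mice lay above the control median and 9 of them lay above the highest control mouse. The log2 difference was 1.69 (SE 0.276, 95% confidence interval 1.12 to 2.26, adjusted p = 0.000752 by limma). In bulk retina, more cells that express the gene and more RNA per cell cannot be told apart.

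The rise of *Hmox1* on P17 was also seen within slides. On the 6 slides that held both groups on P17, the OIR mean was higher on 6, by between 0.82 and 3.34 on the log2 scale, and with the slide as a fixed block the log2 difference was 1.72 (adjusted p = 0.00751 by limma). Its size moved with the day on which an array was scanned. Without the arrays of the last of 4 scan days the log2 difference was 1.14 (adjusted p = 0.0417 by limma), and with those arrays alone, from 2 OIR and 5 control mice, it was 2.86 and not called (adjusted p = 0.261 by limma). The call was also lost with Bonferroni adjustment, which leaves the difference at 1.69. The values deposited by the authors, which carry no offset, gave a log2 difference of 2.61 (adjusted p = 2.74e-06 by limma), with group medians of −1.60 in OIR and −4.37 in control mice. The second *Hmox1* probe, A_55_P2029687, was well above background on 39 of the 77 arrays and was not called on P17, at a log2 difference of 0.19 (adjusted p = 0.538 by limma).

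On the other days *Hmox1* did not separate the groups. On P12 the lowest, median and highest log2 ratios were −3.82, −2.66 and −2.44 in control mice and −3.79, −2.61 and −1.47 in OIR mice. On P28 they were −3.92, −3.41 and 0.69 in control mice and −4.11, −3.21 and −1.45 in OIR mice. The groups overlapped through most of their range on both days, and on P28 the highest value belonged to a single control mouse that stood above all others of that day. The log2 difference was 0.29 (SE 0.225) on P12 and −0.19 (SE 0.392) on P28, and neither was called. The sign on P28 rested on that mouse, since without it, a fit chosen after seeing the data, the log2 difference was 0.09 (SE 0.289) and not called. Without the arrays of the last scan day, which held that mouse, it was 0.64 from 2 OIR mice and not called.

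The difference between the days was itself tested in a model with all 6 groups. From P17 to P28 the OIR effect on *Hmox1* fell by 1.88 on the log2 scale (SE 0.447, adjusted p = 0.0324 by limma), the 1 call among the 12 member probes in that test, beside 0.278% of all probes. The effect fell by 1.79 with the slide as a fixed block (adjusted p = 0.0244 by limma) and was also called, as a fall, without the high control mouse of P28. The call was lost without the arrays of the last scan day, at −0.50 (adjusted p = 0.656 by limma). That fit held 2 OIR mice of P28, with log2 ratios of −1.90 and −1.45. From P12 to P17 the OIR effect on *Hmox1* differed by 1.40 (SE 0.456) and was not called (adjusted p = 0.333 by limma). In that comparison 0 of the 12 member probes were called by limma, beside 0.48% of all probes called, and 2 had an unadjusted p under 0.05. This depended on the fit, since *Hmox1* was called with the slide as a fixed block, at 1.54 (adjusted p = 0.0341 by limma), beside 0.941% of all probes. *Hmox1* and *Sod3* were both called in the deposited values, at 2.37 (adjusted p = 0.000689 by limma) and 1.22 (adjusted p = 0.0173 by limma), and with the retina channel alone.

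The superoxide dismutases turn superoxide into hydrogen peroxide in different places, *Sod1* in the cytosol, *Sod2* in mitochondria and *Sod3* outside the cell. On P17, the log2 ratio of *Sod3* had a lowest value of −0.45, a median of −0.14 and a highest value of 0.07 in control mice. The lowest, median and highest values in OIR mice were −0.15, 0.11 and 0.35. The ranges overlapped, and 12 of the 13 OIR values exceeded the control median and 8 lay above the highest control mouse. The log2 difference was 0.24 (SE 0.061, adjusted p = 0.0495 by limma), which lies just inside the threshold. The deposited values, which carry no offset, gave a log2 difference of 0.59 (adjusted p = 0.0113 by limma), and over the alternatives it ran from 0.19 to 0.67.

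The OIR mean of *Sod3* on P17 was higher on 5 of the 6 slides with both groups, and OIR minus control ran from −0.02 to 0.75 over the 6. The call was lost with the slide as a fixed block, where the log2 difference was 0.30 (adjusted p = 0.0675 by limma), and without the arrays of the last scan day, where it was 0.19 (adjusted p = 0.0987 by limma). It was also lost where all 6 groups shared 1 estimate of the spread (adjusted p = 0.446 by limma) and with Bonferroni adjustment, both with the difference still at 0.24. With the last scan day alone it was lost too, where 2 OIR mice had 0.28 and 0.35 and 5 control mice −0.45 to 0.07. On P28 the OIR mice again had the higher *Sod3* median, with a lowest, median and highest log2 ratio of −0.49, 0.57 and 0.98 against −0.79, −0.22 and 0.56 in control mice. All but 1 of the OIR mice, 12 of 13, lay above the control median and 7 lay above the highest control mouse. Its log2 difference of 0.62 (SE 0.152) had an adjusted p of 0.194 by limma and was not called. The deposited values gave a log2 difference of 1.11 on P28, which was not called either.

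Within the 3 slides that held both groups on P28, the OIR mean of *Sod3* was higher on 3, by 0.31 to 1.01. With the slide as a fixed block the log2 difference on P28 was 0.60 (adjusted p = 0.252 by limma). The SD of *Sod3* between mice was 0.43 in control and 0.38 in OIR mice on P28, against 0.15 and 0.16 on P17. A fit of all 6 groups gives them 1 shared spread, so its p-values do not reflect the wider spread of P28. The P28 difference was called in that fit (adjusted p = 0.00084 by limma), in which the P17 call was lost, and with the retina channel alone (adjusted p = 0.0456 by limma). It was also called without the arrays of the last scan day (adjusted p = 0.0356 by limma), but that fit held 2 OIR mice and called 8.2% of all probes, against 0.0611% with all arrays. On P12 the *Sod3* probe was well above background in 10 of 12 control mice but 5 of 13 OIR mice, while on P17 and P28 it was so in all mice. Its log2 difference on P12 was −0.06 (SE 0.084) with the offset and −0.64 (SE 0.237) in the deposited values, and neither was called. The OIR mean on P12 was lower on 6 of 7 slides with both groups, and the difference was negative under all 16 alternatives.

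The change of the *Sod3* effect between days did not pass in the reported fit, but it did under several alternatives. Against P12, the OIR effect on P28 was 0.68 higher (SE 0.157, adjusted p = 0.0790 by limma), and with the slide as a fixed block this was called at 0.72 (adjusted p = 0.0368 by limma), beside 0.101% of all probes. In the reported fit 0 of the 12 member probes were called by limma in that comparison, beside 0.0395% of all probes called, and 1 had an unadjusted p under 0.05.

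*Sod2* went the other way on P17 without passing the test. Its log2 ratio had a lowest, median and highest value of 0.14, 0.37 and 0.57 in control mice and −0.11, 0.16 and 0.46 in OIR mice. The ranges overlapped, and 12 of the 13 OIR values were under the median of the controls. The log2 difference was −0.23 (SE 0.059, adjusted p = 0.0634 by limma), and the OIR mean was lower on 6 of the 6 slides with both groups. With the slide as a fixed block it was called, at −0.17 (adjusted p = 0.0489 by limma). *Sod1* had log2 differences of 0.07 on P12, −0.04 on P17 and −0.11 on P28, none of them called.

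**Figure D2:**
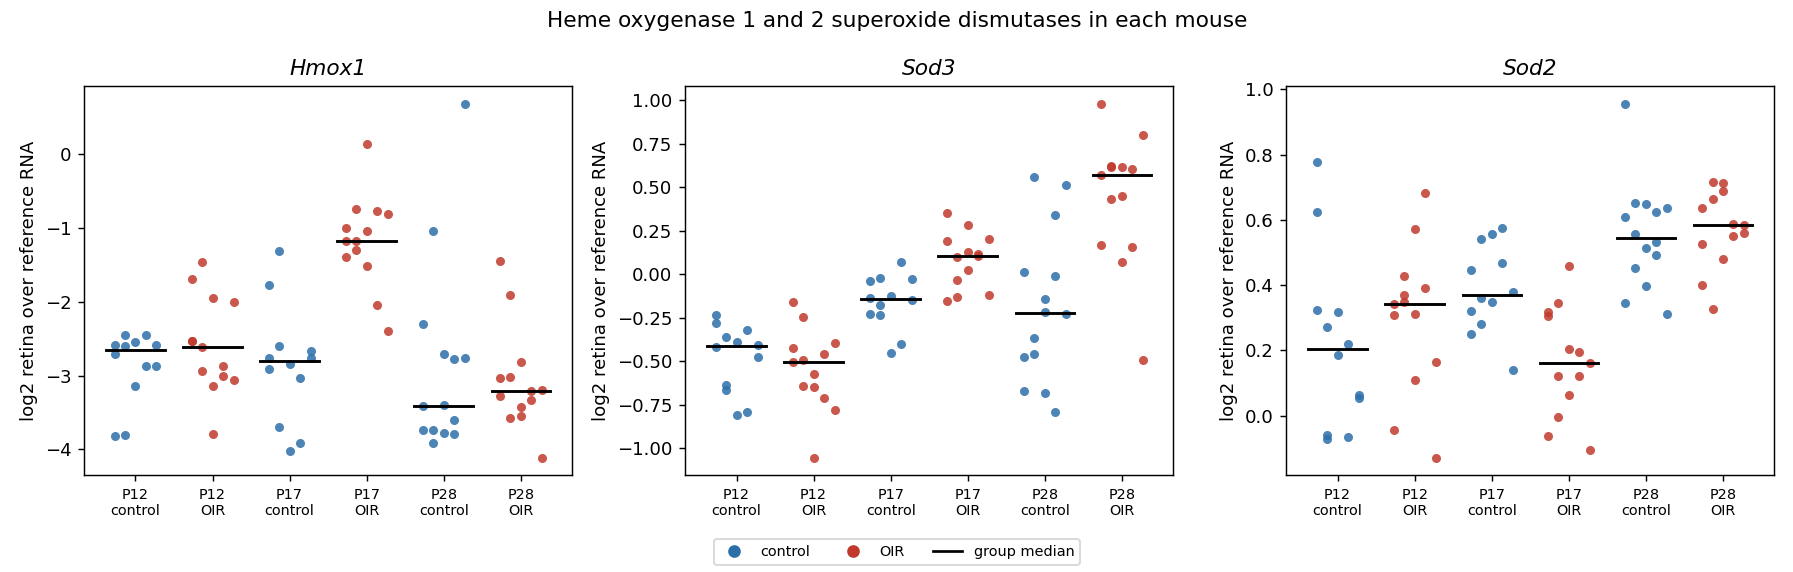
Log2 ratio of retina over reference RNA of *Hmox1*, *Sod3* and *Sod2* in each mouse, by day and group, with a black line at each group median. On P17 the *Hmox1* median is −2.80 in control and −1.17 in OIR mice, and the single high control mouse on P28 is at 0.69.

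*Cat* encodes catalase, the peroxisomal enzyme that splits hydrogen peroxide into water and oxygen. Its brighter probe varied more between mice of a group than any other representing probe of the members on P12 and P17. On P17 the lowest, median and highest log2 ratios were −1.04, 1.08 and 1.70 in control mice and −0.94, 1.38 and 1.96 in OIR mice. The groups overlapped almost fully, and the mice below 0 in both groups were on arrays of the last scan day. The log2 difference between OIR and control mice was, in turn, −0.12 (SE 0.361) on P12, 0.28 (SE 0.372) on P17 and −0.46 (SE 0.354) on P28, with no call. The other *Cat* probe was well above background on 24 of the 77 arrays and in 0 of the 12 control mice on P17, where it holds only a bound.

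*Gclc* and *Gclm* encode the catalytic and the modifier subunit of glutamate-cysteine ligase, the first step of glutathione synthesis. The *Gclc* median on P12, P17 and P28 was −0.36, −0.36 and −0.20 in control mice and −0.31, −0.39 and −0.09 in OIR mice. The ranges of the 2 groups overlapped on each day, and the log2 differences lay between −0.03 and 0.07. The *Gclm* probe was well above background on 30 of the 77 arrays, and its log2 differences lay between −0.03 and 0.05. *Nqo1*, whose product reduces quinones by 2 electrons at once, was well above background on 28 of the 77 arrays and had log2 differences of 0.09, 0.11 and −0.22 on P12, P17 and P28. For *Gclm* and *Nqo1* the signal over background thus limited what could be seen.

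*Txnrd1* encodes the cytosolic thioredoxin reductase and *Srxn1* sulfiredoxin, which repairs over-oxidised peroxiredoxins. On P12, *Txnrd1* had a lowest, median and highest log2 ratio of −2.03, −1.81 and −1.48 in control mice and −2.18, −1.61 and −0.94 in OIR mice. The OIR group sat slightly higher with a wide overlap, and 12 of 13 OIR mice lay above the control median. This was the member probe with an unadjusted p under 0.05 on P12 (log2 difference 0.22, SE 0.096, p = 0.0282 by limma), and it did not hold after adjustment over all probes. On P17, the OIR mean of *Txnrd1* was higher on 6 of the 6 slides with both groups, by 0.05 to 0.19, and the log2 difference of 0.13 (SE 0.115) was not called. *Srxn1* had log2 differences of −0.03, 0.00107 and −0.00457 between OIR and control mice on the 3 days, the smallest of the members on P17 and P28, and its confidence interval on P17 ran from −0.09 to 0.10.

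With age, by contrast, *Srxn1* rose in both groups. Its log2 ratio in control mice had a lowest, median and highest value of −0.79, −0.48 and −0.10 on P12 and −0.20, −0.10 and 0.24 on P17. In OIR mice these values were −0.75, −0.50 and −0.27 on P12 and −0.22, −0.08 and 0.09 on P17. The OIR mice of the 2 days did not overlap, and all 12 control mice of P17 lay above the control median of P12. The log2 rise was 0.41 in control mice (SE 0.055, adjusted p = 1.60e-07 by limma) and 0.44 in OIR mice (SE 0.052, adjusted p = 1.29e-09 by limma). It was 0.38 and 0.44 with the slide as a fixed block, and 0.40 and 0.43 without the arrays of the last scan day, and all 4 of these were called. With the arrays of that day alone 0 member probes were called, beside 0.808% of all probes in control and 0.945% in OIR mice.

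*Srxn1* was the 1 member called between P12 and P17 in control mice, beside 1.28% of all probes. In OIR mice 3 member probes rose between P12 and P17, beside 3.43% of all probes. Besides *Srxn1* these were *Hmox1*, by 1.41 on the log2 scale (SE 0.316, adjusted p = 0.00173 by limma), and *Sod3*, by 0.63 (SE 0.111, adjusted p = 3.46e-05 by limma). The size of the *Sod3* rise depended on the offset, since with an offset of 0 and all else equal it was 2.002 (SE 0.194, adjusted p = 2.01e-13 by limma), and the deposited values gave 2.43 (SE 0.216, adjusted p = 4.99e-15 by limma). Its probe was well above background in 5 of the 13 OIR mice on P12, so none of these sizes is exact. In control mice *Sod3* also rose with an offset of 0, by 0.88 (adjusted p = 0.0042 by limma), and in the deposited values, by 1.20 (adjusted p = 0.000151 by limma). All 13 OIR mice of P17 lay above the OIR median of P12 for *Hmox1*, and above the highest OIR mouse of P12 for *Sod3*. Both rises were called without the arrays of the last scan day, at 1.17 for *Hmox1* and 0.52 for *Sod3*. Neither was called with the arrays of that day alone, and with Bonferroni adjustment the *Hmox1* rise was not called.

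Between P17 and P28 the age of the mice and the scan day of the arrays moved together. The arrays of the last scan day held 2 OIR and 3 control mice of the P12 groups, 2 and 5 of the P17 groups, and 11 and 9 of the P28 groups. In control mice of P28, between 31397 and 34306 probes were well above background on the arrays of that day and between 19938 and 20967 on earlier arrays. The *Cat* probe followed the same split, since P28 control mice ranged from −1.54 to −0.46 on the last scan day and from 0.77 to 1.13 on earlier days. *Nqo1* did so as well, with P28 control mice between −1.89 and −1.55 on the last scan day and between −1.18 and −0.76 on earlier days. *Txnrd1* and *Sod1* also lay lower in P28 control mice on the last scan day, at −2.33 to −2.10 against −1.91 to −1.79, and at −0.85 to −0.61 against −0.54 to −0.18. For *Hmox1* the P28 control median was −3.74 on the last scan day and −2.71 on earlier days, and the P28 OIR mice ranged from −4.11 to −2.81 on that day while the other 2 had −1.90 and −1.45. On P12 its control mice ranged from −3.82 to −3.15 on the last scan day and from −2.87 to −2.44 before it. On P17 the control median was −3.70 on the last scan day, from 5 mice, and −2.67 on earlier days, from 7. The P17 OIR mice did not follow, with −1.40 and 0.15 in the 2 mice of that day and −2.40 to −0.74 in the others. *Gclc* and *Sod2* lay higher in P28 control mice on the last scan day. The ranges were −0.26 to 0.18 against −0.43 to −0.27 for *Gclc*, and 0.51 to 0.96 against 0.31 to 0.49 for *Sod2*. *Srxn1* did not split, since its median in P28 control mice was 0.11 on the last scan day and 0.12 on earlier days.

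**Figure D3:**
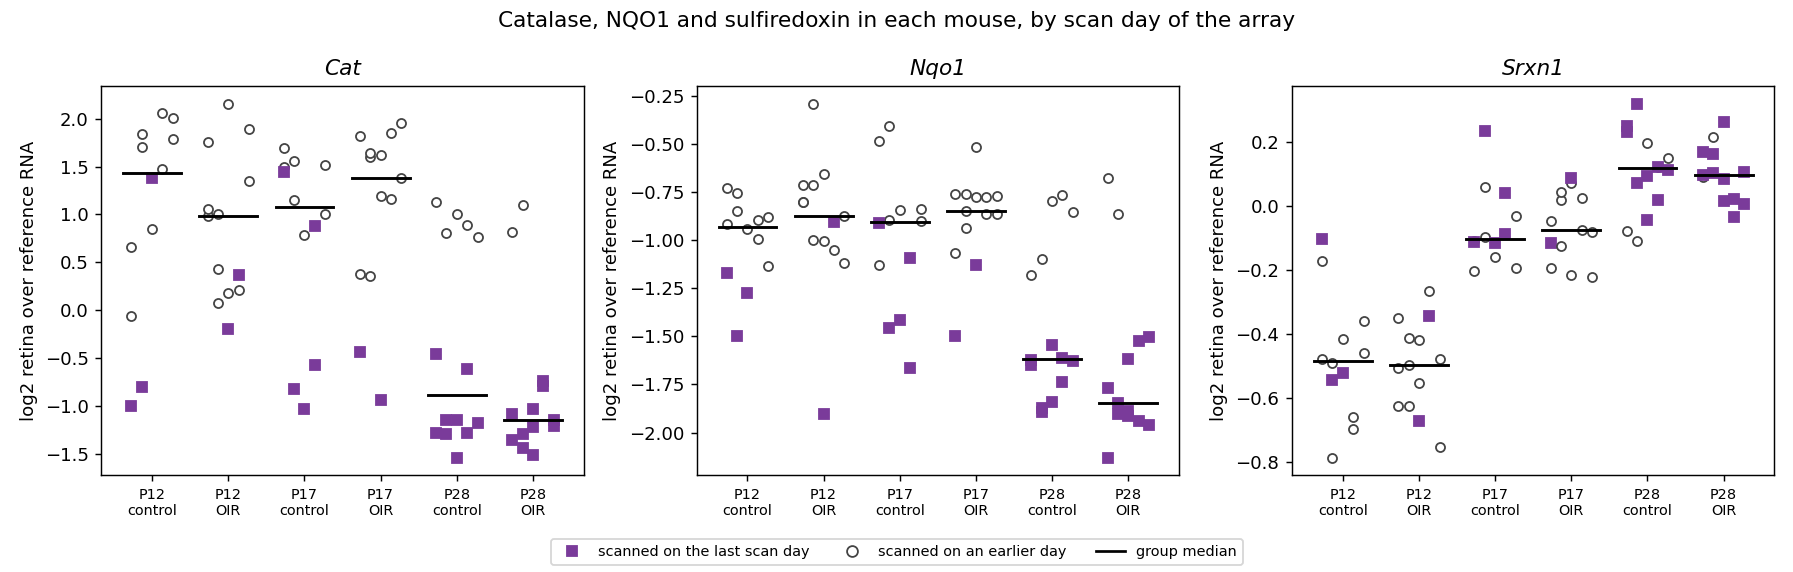
Log2 ratio of retina over reference RNA of *Cat*, *Nqo1* and *Srxn1* in each mouse, by day and group, with filled squares for arrays of the last scan day, open circles for earlier arrays and a black line at each group median. In P28 control mice the *Cat* squares lie between −1.54 and −0.46 and the circles between 0.77 and 1.13.

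By the model with all 6 groups, 4 member probes changed in control mice between P17 and P28, beside 13.4% of all probes. *Cat* fell by 1.14 (adjusted p = 0.0279 by limma) and *Nqo1* by 0.43 (adjusted p = 0.0260 by limma), while *Gclc* rose by 0.19 (adjusted p = 0.0405 by limma) and *Srxn1* by 0.17 (adjusted p = 0.0214 by limma) on the log2 scale. Against the P17 control median, 13 of the 14 control mice of P28 lay lower for *Cat* and 11 lower for *Nqo1*, and 12 lay higher for *Gclc* and 13 for *Srxn1*. The *Nqo1* fall was called with an offset of 0, at −0.94 (adjusted p = 0.00807 by limma), but was not seen in the deposited values, which gave 0.05 (adjusted p = 0.928 by limma), and its probe was well above background in 3 of the 12 control mice on P17. *Gclm*, not called with either offset, was called in the deposited values at 1.03 (adjusted p = 0.0237 by limma). With the slide as a fixed block the log2 changes of these 4 were −0.90, −0.28, 0.20 and 0.19, each of them called, beside 14.5% of all probes. Without the arrays of the last scan day 0 member probes were called by limma, beside 1.89% of all probes, and 1 had an unadjusted p under 0.05. With the arrays of that day alone, from 9 mice on P28 and 5 on P17, 3 were called by limma, *Cat* at −1.08, *Nqo1* at −0.40 and *Gclc* at 0.34, beside 12.1% of all probes.

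In OIR mice, 11 of the 12 member probes changed between P17 and P28, where 40.6% of all probes were called. *Hmox1* fell by 1.90 on the log2 scale (SE 0.316, adjusted p = 1.65e-06 by limma), *Cat* fell by 1.88, while *Sod2* rose by 0.41 (SE 0.072, adjusted p = 4.69e-06 by limma) and *Sod3* by 0.35. All 13 OIR mice of P28 lay below the P17 median for *Hmox1* and *Cat* and above it for *Sod2*. *Nqo1* was called at −0.77, but its direction turned in the deposited values, at 0.24 and not called (adjusted p = 0.489 by limma), and its probe was well above background in 2 of the 13 OIR mice on P17. With an offset of 0 it was −0.55 and not called (adjusted p = 0.0837 by limma). The remaining called genes were *Sod1* and *Txnrd1*, which were lower, and *Gclc* and *Srxn1*, which were higher, and *Gclm* was not called. In the deposited values *Sod1* at 0.02 and the second *Cat* probe at 0.27 turned as well, *Txnrd1* was at −0.12 and *Sod3* at 0.38, and by limma none of these 4 was called, while *Gclm* was called at 1.28 (adjusted p = 0.00135 by limma). With the slide as a fixed block 5 member probes were called, of *Hmox1*, *Cat*, *Nqo1* and *Sod2*, beside 17.2% of all probes. Without the arrays of the last scan day, where 2 OIR mice of P28 remain, 0 were called by limma, beside 0.656% of all probes, and 2 had an unadjusted p under 0.05. With that day's arrays alone 1 was called, for *Hmox1*, beside 4.92% of all probes. The part of the scan day in these changes was not tested beyond these fits. Markers of other retinal cells, given below, also moved over this step.

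The reference RNA is the same on every array, so its channel was compared between groups in the same way. Between OIR and control mice 0 of the 12 member probes were called by limma in the reference channel on any of the 3 days, and an unadjusted p under 0.05 was seen for 0 on P12, 0 on P17 and 1 on P28. Between P17 and P28 in OIR mice, the bright *Cat* probe was lower in the reference channel by a log2 difference of −0.62 (adjusted p = 0.0189 by limma). It was the 1 member probe called in that channel over the 10 comparisons, in a comparison where 6.38% of all probes were called in the channel.

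Other genes of the same pathways were read from 8 lists with 118 genes, all but *Gsta1*, *Nnt* and *Cyp2a5* measured, on 158 probes. Between OIR and control mice, 0 of the 158 probes were called by limma on P12 and 0 on P28, with 4 and 15 at an unadjusted p under 0.05. Of all probes, 0.0233% were called on P12 and 0.0611% on P28. On P17, 7 were called, 3 higher and 4 lower in OIR mice, beside 1.13% of all probes called, a share that holds for each list below. An unadjusted p under 0.05 was seen for 36 of the 158 probes on P17. The share of all probes at that unadjusted threshold is not given here, so such counts, also those of the members, have no background beside them. The NRF2 regulators, with *Nfe2l2* for NRF2 itself and *Keap1* among 9 genes, had no call by limma on P17, log2 differences from −0.19 to 0.50, and 2 of 12 probes at an unadjusted p under 0.05. The list of 17 genes of glutathione synthesis and use had none either, with log2 differences from −0.12 to 0.46 and 2 of 20 probes at an unadjusted p under 0.05.

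Heme and iron handling, the list nearest to *Hmox1*, had 2 of 18 probes called on P17, both higher, with a median log2 difference of 0.04 over the list. They were 1 of the 2 probes of *Cp* and 1 of the 2 of *Ftl1*, and no other probe of the list had an unadjusted p under 0.05. *Cp*, which encodes ceruloplasmin, an enzyme that oxidises iron for export, had a lowest, median and highest log2 ratio of −2.11, −1.60 and −1.12 in control mice and −0.90, −0.57 and 0.15 in OIR mice. The 2 groups did not overlap, and the log2 difference was 1.13 (SE 0.127, adjusted p = 3.82e-06 by limma). *Ftl1*, the ferritin light chain that stores iron, differed by 0.54 (SE 0.107, adjusted p = 0.00687 by limma), and each of the 13 OIR values exceeded the control median. On P28 *Cp* differed by 0.49 and was not called (adjusted p = 0.0528 by limma), though each of the 13 OIR values again exceeded the control median.

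In each of the 3 lists of conjugating, peroxide-reducing and NADPH-producing enzymes, 1 probe was called on P17, lower in OIR mice. The log2 differences of these lists ran from −0.41 to 0.48, −0.35 to 0.45 and −0.42 to 0.18, with medians of 0.06, −0.00857 and −0.06 and 11, 5 and 4 probes at an unadjusted p under 0.05. *Gstt1*, a glutathione S-transferase, differed by −0.41 (adjusted p = 0.00148 by limma), the 1 call among 35 probes, and 12 of 13 OIR values fell short of the control median. *Prdx6*, a peroxiredoxin that reduces lipid peroxides, differed by −0.35 (adjusted p = 0.00502 by limma), 1 of 23 probes and 1 of the 4 probes of the gene. On P28 this probe lay the other way, at 0.26 (SE 0.068) and not called (adjusted p = 0.268 by limma), with 13 of the 13 OIR values over the median of the controls. *Tkt*, the transketolase of the pentose phosphate pathway, differed by −0.42 (adjusted p = 0.00116 by limma), 1 of 10 probes. On P17, for *Prdx6* and *Tkt*, each of the 13 OIR values was under the median of the controls.

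The last pair of lists had 1 call each on P17, and log2 differences from −0.36 to 0.42 and −0.02 to 0.86, with medians of 0.09 and 0.05 and 7 and 3 probes at an unadjusted p under 0.05. *Slc6a9* and *Cyba* have 2 probes each, of which 1 was called. *Slc6a9*, a glycine transporter in the list of detoxification and other NRF2 targets, was lower by a log2 difference of −0.36 (adjusted p = 0.0307 by limma), 1 of 27 probes, and each of the 13 OIR values was under the median of the controls. *Cyba*, which encodes a subunit shared by superoxide-producing NADPH oxidases, was higher by 0.86 (SE 0.177, adjusted p = 0.00935 by limma), 1 of 13 probes, and each of the 13 OIR values exceeded the median of the controls.

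Some markers of other retinal cells were also called on P17. Of the reactive glia markers 4 of 11 probes were called, all higher, with *Vim* at a log2 difference of 1.19 and *Gfap* at 0.97, and the mean log2 ratio of the list, whose brightest gene was *Vim*, was −0.75 in control and −0.30 in OIR mice. Of the microglia and macrophage markers 3 of 19 probes were higher, *Csf1r* by 0.51, *Aif1* by 0.33 and *C1qc* by 0.33, with *Itgam* as the brightest gene and list means of −0.34 and −0.12 in control and OIR mice. Red blood cell markers had 2 of 7 probes higher, *Hba-a1* by 1.38 and *Hba-a2* by 1.37, with *Hba-a2* as the brightest gene and list means of 0.86 and 1.44. Their part in the rise of *Hmox1* and *Sod3* was not tested.

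Among vessel markers, mural cells had 3 of 8 probes higher on P17 (*Tagln*, *Cspg4* and *Notch3*), with *Acta2* as the brightest gene and list means of −0.94 in control and −0.46 in OIR mice. Endothelial cells had 1 of 9 probes higher, *Vwf* by 0.97, with a median log2 difference of 0.11 over the list and list means of 0.65 and 0.86. Astrocytes had 1 of 5, *Aldh1l1* by 0.41, while the list ran down to −0.29 with a median of −0.00582 and list means of 0.08 and 0.15. Pigment epithelium and lens markers had 1 probe lower each, *Rpe65* by a log2 difference of −0.81 and *Bfsp2* by −0.31, with list means of 1.07 and 0.71, and of 0.27 and 0.12, in control and OIR mice. Rods and Mueller glia had 0 of 9 probes each called by limma, and 1 and 6 at an unadjusted p under 0.05, with list means of 5.41 and 5.45, and of 2.86 and 2.45. On P28, where *Sod3* was not called, 1 of the 19 microglia and macrophage probes was called, *Csf1r* at 0.41, in a list that ran from −0.43 to 0.42 with a median of 0.04. Of the 9 endothelial probes 1 was called on P28, *Vwf* at 0.68, in a list that ran from −0.06 to 0.68 with a median of 0.07. On P12, 1 of the 8 mural probes was called, *Abcc9* at −0.37, in a list with a median of −0.04. These counts stand beside 0.0611% of all probes called on P28 and 0.0233% on P12. List means of OIR mice also moved between days. From P17 to P28 lens went from 0.12 to 1.14, mural cells from −0.46 to −1.28 and rods from 5.45 to 4.52. In control mice these went the same way, from 0.27 to 0.92, −0.94 to −1.29 and 5.41 to 4.93. The lens values of single OIR mice on P28 ran from 0.02 to 2.74. Age and scan day moved together over this step. Mueller glia went from 2.45 to 3.09 over that step, and astrocytes from 0.15 to 0.24, against 2.86 to 3.02 and 0.08 to 0.10 in control mice. In OIR mice reactive glia went from −0.30 to −0.76, microglia and macrophages from −0.12 to −0.40, and red blood cells from 1.44 to 1.08. In control mice these went from −0.75 to −0.96, −0.34 to −0.49 and 0.86 to 1.11. Pigment epithelium went from 0.71 to 1.06 in OIR and from 1.07 to 0.67 in control mice. Endothelial cells went from 0.86 to 0.75 and from 0.65 to 0.59. From P12 to P17 red blood cells went from 0.49 to 1.44 and mural cells from −1.06 to −0.46. The part of these cells in the member results was not tested.

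The genes whose 6 group means ran most like those of *Hmox1*, out of 9513 genes compared, were *Crip1*, *Stat3* and *Tagln*, with a root mean square difference of 0.162, 0.188 and 0.224 on the log2 scale. On P17, *Crip1* was higher in OIR mice by 1.30, *Stat3* by 1.51 and *Tagln* by 1.03, each of them called. Since these genes were picked by the same group means, a rise on P17 like that of *Hmox1* follows from the choice. For *Sod3*, the nearest of 9514 genes were *Slc6a13*, *Ahr* and *Niban2*, with a root mean square difference of 0.088, 0.106 and 0.109. None of these 3 genes was called between OIR and control mice on any day by limma.

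Promoter sequences from RefSeq (GRCm38.p6) were searched for the letters TGACNNNGC, the core of the antioxidant response element, on both strands of the 300 bases around each gene start, 250 of them before it. Of all 32851 promoters 4071, or 12.4%, held the motif. The table held 7 of the members with 9 promoters, and 4 of those promoters, of *Srxn1*, *Gclm*, *Txnrd1* and *Sod1*, held a match. *Hmox1*, *Gclc* and *Sod3* are not in it. The stretches around the 3 matches before a gene start are printed to show the letters in their setting, on the strand of the gene, with the match in capitals on the reverse strand.
*Gclm*, chr3:122245398-122245456: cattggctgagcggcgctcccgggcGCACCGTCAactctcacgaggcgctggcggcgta
*Txnrd1*, chr10:82859089-82859147: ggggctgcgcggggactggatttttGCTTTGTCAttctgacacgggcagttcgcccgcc
*Sod1*, chr16:90220681-90220739: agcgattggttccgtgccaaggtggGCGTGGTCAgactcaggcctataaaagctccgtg
The matches end 125, 83 and 47 bases before the start of *Gclm*, *Txnrd1* and *Sod1*. A match is a run of letters and no measure of NRF2 binding, and none of these 3 genes was called between OIR and control mice.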

How the data were processed

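Retina RNA of 77 mice was measured on Agilent mouse arrays with 2 dyes. Per the file headers, the authors extracted the median signal and local background of each spot as an intensity without normalization with Feature Extraction 10.7.3.1. Per the file headers, the log ratio in the scanner files is a log10 ratio of Cy5 over Cy3 processed signals. The table deposited by the authors holds, on every array, the log2 ratio of Cy3 over Cy5 processed signals for 100% of the probes with a single spot (tolerance 0.001), with column medians from −0.127 to 0.00993.

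The median signals were corrected with normexp (offset 50) and normalized by loess within arrays in limma 3.58.1 (R 4.3.3, jsonlite 2.0.0). Spots marked as outliers (0.592 to 0.951% of 62976) were dropped, control spots had no weight, and spots of a probe were averaged. Probes took their symbols from RefSeq transcripts, which named 28026 of the 55681 probes tested, of which 482 had fewer than 77 values. In the retina channel, 13765 to 34306 probes of an array were well above background. The residual SD between mice of a group had a median over probes of 0.0765, 0.0795 and 0.0888 on P12, P17 and P28. No array was left out.

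OIR and control mice were compared on each day with lmFit and eBayes of limma, and other contrasts in 1 model with 6 group means. Named genes are all members, list genes called on any day (up to 3 rises and 3 falls a list and day), and the 3 genes nearest to each member called on a day, among genes well above background on at least 70 arrays; the markers named were chosen after their values were seen. The members and lists were chosen with earlier results of these data known. The alternatives are no background subtraction, offset 0, the scanner software's log ratio, the deposited table, quantile normalization between arrays, the retina channel alone, outlier spots kept, a filter on dim probes, trend and robust, array weights, the slide as a fixed or random block, the deposited table with the slide as a block, another set of groups in the model, Bonferroni adjustment and the mean of a gene's probes. The slide and the 4 scan days came from the file headers. Quantile normalization changed no ratio and is left out of the counts of alternatives. The reference channel alone was tested as a check of the reference, and it is no alternative and not in those counts. The fits with and without the last scan day, and without 1 control mouse of P28, were chosen after seeing the data. The procedure was tested on simulated data with independent noise for each value, which held no slide, scan-day or litter effect.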

Additional observations from a re-analysis of the deposited data

Results flagged for a closer look

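The OIR effect on *Hmox1* differed between days by the test of the difference itself. From P17 to P28 it changed by −1.88 on the log2 scale (SE 0.447, adjusted p = 0.0324 by limma). The call was lost without the arrays of the last scan day, at −0.50 (adjusted p = 0.656 by limma), in a fit with 2 OIR mice of P28. It was also lost with those arrays alone, where the OIR difference on P17 was 2.86 from 2 OIR and 5 control mice. Other groups in the fit and Bonferroni adjustment lost the call too, with the change still at −1.88. The cause was not tested.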

How the results depend on the processing

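On P12 the count of 0 called member probes was the same under all 16 alternatives. Quantile normalization between arrays changed none of the log2 ratios (largest change 0), so its results equal the reported ones by construction and it is not counted. The reference channel alone, a check of the reference, is not counted either. Percentages are the share of all probes called in the same fit. On P17 (2 called, 1.13%), the count was 1 with other groups in the fit (1.22%) and without the last scan day (0.864%), and 0 with Bonferroni adjustment (0.232%) and with the last scan day alone (0.0198%). On P28 (0 called, 0.0611%), it was 1 with the retina channel alone (0.296%) and with other groups in the fit (0.149%), and 2 without the last scan day (8.2%). For the OIR effect on P17 against P12 (0 called, 0.48%), 2 were called with offset 0 (1.01%), the scanner's log ratio (1.43%), the deposited table without (1.39%) and with the slide block (2.01%), and the retina channel alone (1.72%), and 1 with array weights (1.29%) and with the fixed slide block (0.941%). For P28 against P17 (1 called, 0.278%), 0 were called with other groups (0.264%), with Bonferroni adjustment (0.0934%), without the last scan day (0.33%) and with that day alone (0.183%). For P28 against P12 (0 called, 0.0395%), 1 was called, *Sod3*, without background subtraction and with offset 0, the scanner's log ratio, the deposited table, the retina channel, array weights, both slide blocks, the deposited table with the slide block and without the P28 control mouse highest in *Hmox1* (0.0467 to 0.244%).

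In control mice, P17 against P12 (1 called, 1.28%) gave 2 with offset 0, the scanner's log ratio, the deposited table with and without the slide block, the retina channel, array weights, other groups and without the last scan day (0.753 to 4.18%), and 0 with the last scan day alone (0.808%). In OIR mice (3 called, 3.43%) it gave 0 with the last scan day alone (0.945%). For P28 against P17 in control mice (4 called, 13.4%), the count was 2 without background subtraction (14.4%), with offset 0 (12.4%) and with other groups (12%), 7 with array weights (34.1%), and 0 with Bonferroni adjustment (1.11%) and without the last scan day (1.89%). In OIR mice (11 called, 40.6%), it was 5 with offset 0 (31.9%) and with the fixed slide block (17.2%), 6 with the scanner's log ratio (40.6%) and with the deposited table (44.3%), 7 with the retina channel (38.6%), 3 with Bonferroni adjustment (7.51%) and with the deposited table and slide block (12.2%), 0 without the last scan day (0.656%) and 1 with it alone (4.92%). The causes were not tested, except that Bonferroni adjustment is stricter and that both scan-day settings and the one without a mouse, chosen after seeing the data, have fewer mice.

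*Hmox1* on P17 was higher in OIR mice under all 17 alternatives, by 0.94 to 2.86 on the log2 scale, and called in 15 (adjusted p from 2.74e-06 to 0.261). *Sod3* on P17 was higher under all 16, by 0.19 to 0.67, and called in 11. *Sod2* on P17 was lower under all 16 and called in 5. Probes near background, such as those of *Nqo1* and *Gclm*, limit what could be detected.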
